A study of Homo sapiens with 6 samples.

Results

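The miR-34 family was examined in HK-2 cells as 4 human array probes, those named hsa-miR-34a, hsa-miR-34b, hsa-miR-34c-5p and hsa-miR-34c-3p, out of 1719 human miRNA probes. The prefix hsa is left off from here on. The probes were chosen by name, without use of their measured values. HK-2 is an established human line of kidney proximal tubule epithelium that was immortalised with the papillomavirus genes E6 and E7. Single-colour arrays compared 3 samples kept for 48 h with aristolochic acid at 5 µg/ml in low serum with 3 control samples kept for the same time in low serum alone. Aristolochic acid, from Aristolochia plants, damages tubule cells and binds covalently to DNA. Both groups came from the same line, so E6 and E7 were shared by treated and control cells. Whether the 3 replicates of a group were grown apart is not recorded, so each p-value reflects a spread that may be technical.

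The miR-34 genes are among the best-known miRNA targets of the transcription factor p53, which binds and activates them after DNA damage. Their products repress mRNAs for cell-cycle and survival proteins, among them CDK6, cyclin D1, MET, MYC and BCL2. The papillomavirus protein E6 directs p53 to degradation and E7 inactivates the retinoblastoma protein. The comparison therefore reads a p53-dependent miRNA family under a DNA-damaging toxin in cells that carry an inhibitor of p53. The p53 protein, its mRNA and its activity were not measured here.

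The sequences show which arm of each hairpin the probe names refer to, and which of them carry the seed of the family. A miRNA gene gives a hairpin RNA from which a 5′ and a 3′ arm are cut, and the seed (bases 2 to 8) guides pairing with targets. Mature sequences are given 5′ to 3′ from RefSeq, assembly GRCh38.p14, with the seed in capitals, and were assigned through the miRBase identifier beside each probe. The array files name no genome build.
miR-34a (5′ arm): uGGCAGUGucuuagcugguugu
miR-34b (3′ arm): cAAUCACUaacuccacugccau
miR-34c-3p (3′ arm): aAUCACUAaccacacggccagg
miR-34b* (5′ arm): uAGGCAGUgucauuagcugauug
miR-34a* (3′ arm): cAAUCAGCaaguauacugcccu
miR-449a (5′ arm of a related hairpin): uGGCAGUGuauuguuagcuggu

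MiR-34a has the seed GGCAGUG, which 3 mature human miRNAs of the RefSeq table share, the others being miR-449a and miR-449b. The probe called miR-34b is the 3′ arm of its hairpin and has the seed AAUCACU instead. The family motif lies on the 5′ arm, measured by the probe miR-34b*, whose listed start is 1 base earlier and whose seed is therefore AGGCAGU. MiR-34b and miR-34c-3p, both 3′ arms, share the 10-base run AAUCACUAAC. Aligned without gaps, miR-34a and miR-34b* match at 12 of 22 bases, and miR-34a and miR-449a at 15 of 22. MiR-34b* has 1 more base after the shared run GGCAGUGUC, which puts the bases behind it out of step. These counts therefore do not rank the pairs by likeness. The sequence of miR-34c-5p is not given here.

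The MIR34A hairpin lies at chr1:9151668-9151777 on the minus strand of GRCh38.p14, with both mature arms in capitals.
MIR34A: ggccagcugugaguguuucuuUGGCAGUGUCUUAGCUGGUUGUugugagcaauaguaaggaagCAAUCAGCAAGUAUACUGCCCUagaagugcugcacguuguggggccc
MIR34B lies at chr11:111512938-111513021 on the plus strand, and MIR34C follows on the same strand after 417 bases. MIR34B and MIR34C are transcribed as 1 precursor, so the probes for miR-34b, miR-34b*, miR-34c-5p and miR-34c-3p report on a shared transcript.
MIR34B: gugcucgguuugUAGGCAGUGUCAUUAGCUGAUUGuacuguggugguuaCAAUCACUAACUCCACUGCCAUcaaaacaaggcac

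The arrays differed in brightness between the groups, which bears on every value below. The background that the authors subtracted was 53.3 to 61.8 on the treated arrays and 50.6 to 51.8 on the control arrays. Summed background-subtracted intensity of detected human probes was 108515 to 120739 on the treated arrays and 80088 to 101889 on the control arrays, from 647 to 873 and from 644 to 936 detected probes. Background-subtracted intensity over the 503 probes detected on all 6 arrays differed by a median of 0.45 (log2), higher on the treated arrays, and whether this came with the treatment or with the handling of the arrays cannot be told apart. Of 10 listed kidney tubule markers, 8 had signal on every array of 1 group or both (median difference 0.03). Of these 8, 1 (miR-194) passed the test used below, as higher, where 0.8% of all tested probes did. Of 24 probes marking blood, endothelial, muscle, stromal, neural or liver cells, 10 had such signal. Of these 10, 0 passed, where 0.96% of all tested probes did (median differences per list between -0.05 and 0.01).

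MiR-34a was the member of the family with clear signal. Its raw spot intensity was 98.3, 88.8 and 91.2 on treated replicates 1 to 3, where the lowest intensity that the authors kept as detected was 66.7, 57.2 and 62.1. On control replicates 1 to 3 it was 90.2, 81.4 and 85.2, against limits of 53.3, 54.2 and 54.0. The probe thus lay above the limit on all 6 arrays, by 29.2 to 31.6 units in treated samples and by 27.2 to 36.9 units in control samples.

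The remaining members lay at or near the limit of detection. MiR-34c-3p had raw intensities of 66.1, 57.4 and 64.0 on the treated arrays, the first of them 0.642 below that array's limit. On the control arrays it had 55.8, 56.1 and 54.1, above the limit by 0.129 to 2.49. It was therefore detected on 2 of 3 treated and 3 of 3 control arrays, and entered the test through the control group. MiR-34b had 67.5, 57.5 and 57.9 in treated samples and 56.8, 53.8 and 52.9 in control samples, and was detected on 2 of 3 and 1 of 3 arrays. MiR-34c-5p, the arm of its hairpin that carries the family motif, had 60.8, 55.3 and 54.8 in treated samples and 51.6, 53.3 and 48.8 in control samples. It was below the limit on all 6 arrays, by 1.92 to 7.26 units in treated and by 0.893 to 5.18 units in control samples. The raw values of all 3 treated arrays lay above those of the control arrays, as did the subtracted background. MiR-34b and miR-34c-5p did not meet the detection filter of the fit below. Without that filter, over 1719 probes, miR-34b had a limma log2 difference of -0.03 (adjusted p = 0.908) and miR-34c-5p one of -0.02 (adjusted p = 0.935), with miR-34b below its limit on 3 of 6 arrays and miR-34c-5p on 6 of 6.

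**Figure D1:**
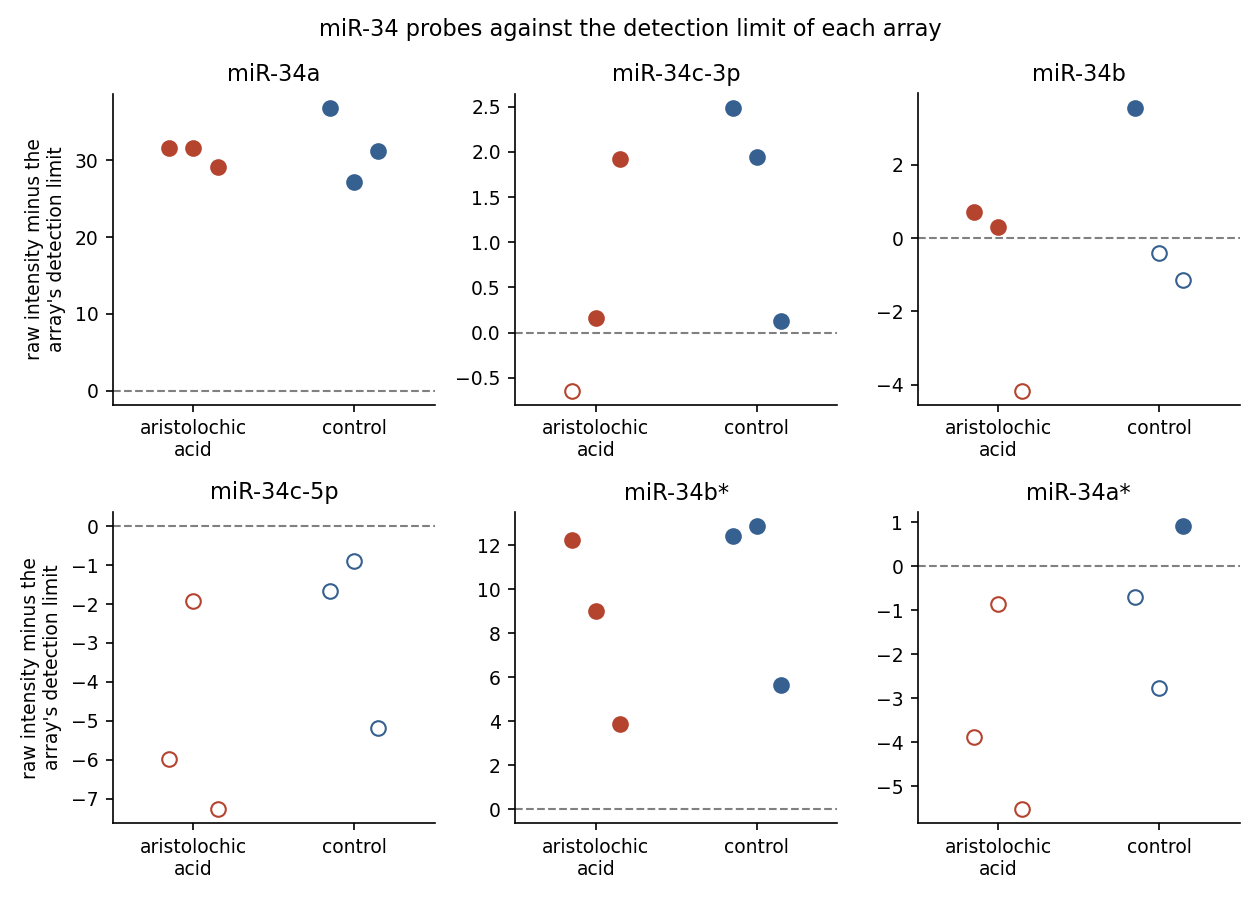
Raw intensity minus the detection limit of the same array (y axis, intensity units) for the 4 members and for miR-34b* and miR-34a*, with 1 point per array, treated arrays left and control arrays right. Filled points were detected and open points were not. MiR-34a lies 27.2 to 36.9 units above the dashed limit on every array, while miR-34c-5p lies below it on every array.

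Before any scaling between arrays, no difference in miR-34a was resolved. Its background-subtracted intensity was 36.6, 35.5 and 33.4 in treated samples and 39.2, 29.6 and 34.6 in control samples. The means were 35.1 ± 1.63 and 34.5 ± 4.83 (SD, n = 3 each), and the treated values lay within the control range. On the log2 scale the difference of means was 0.04, with a 95% interval from limma of -0.37 to 0.44 (adjusted p = 0.874 over 503 probes). On the same scale 53.7% of the 503 probes had all 3 treated arrays above all 3 control arrays, and 0.199% had them all below. MiR-34a was in neither set.

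After the arrays were brought to a common level, miR-34a values were lower in the treated samples. The difference did not reach an adjusted p under 0.05 in limma on either scale given here. Scaled intensity, in which the median of the 503 probes detected on all arrays is 25 on each array, was 41.5, 38.1 and 39.7 in treated samples and 60.1, 47.8 and 60.5 in control samples. All 3 treated arrays lay below all 3 control arrays, with 39.8 ± 1.72 in treated and 56.1 ± 7.21 in control samples (SD, n = 3 each). This is a log2 difference of -0.49 (limma SE 0.156, adjusted p = 0.188 over 503 probes), ranking 29 from the lowest of the 503 probes. Of these probes 14.1% had the treated arrays all below the control arrays, and 8.75% had them all above. In RNA pooled from many cells, fewer cells that express a miRNA and less of it per cell cannot be told apart. The authors' own normalized intensity, which sets the median of each array's detected probes to 25, gave 61.5, 85.5 and 68.1 in treated samples and 138, 105 and 90.9 in control samples. The order of the groups was the same on that scale, and the spread within each group was wider. There the limma log2 difference was -0.62 (SE 0.368, adjusted p = 0.884).

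**Figure D2:**
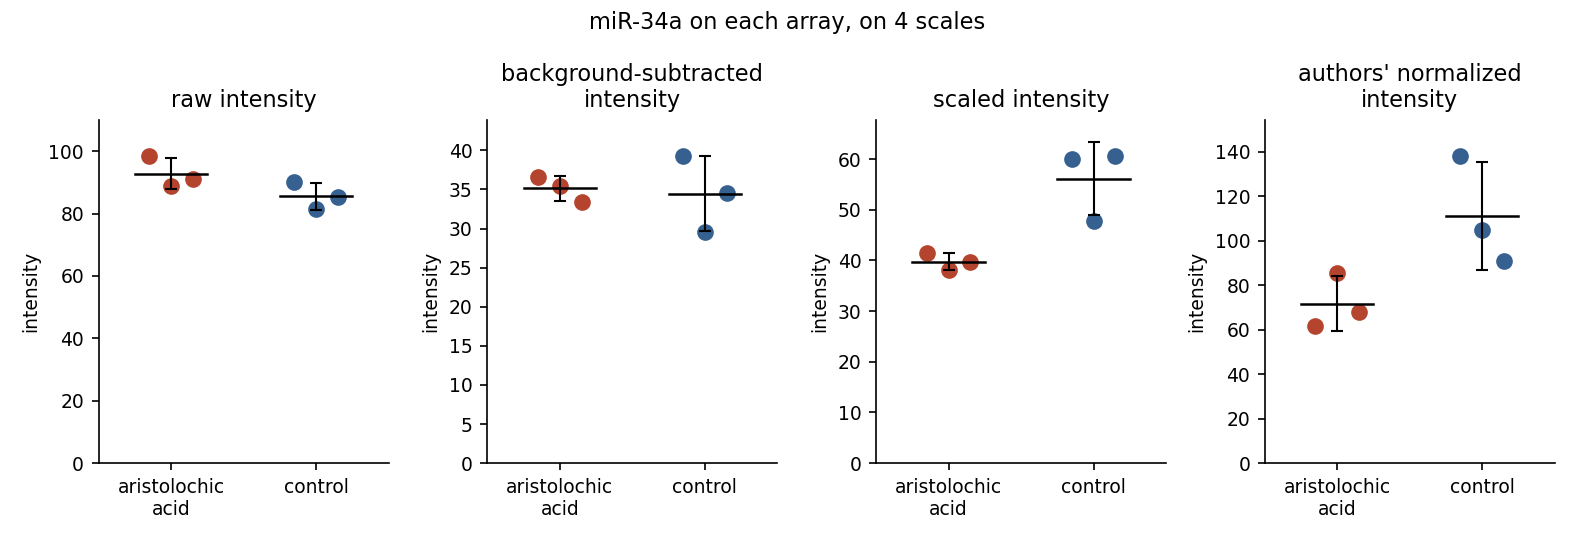
MiR-34a on each array as raw, background-subtracted, scaled and authors' normalized intensity (y axes, intensity units, starting at 0), treated arrays left and control arrays right. Points are arrays, and bars are means with SD (n = 3). The groups overlap on the raw and the background-subtracted scale, and the treated arrays lie below the control arrays on the 2 normalized scales.

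In the fit across all 625 tested probes, made on quantile-normalized log2 intensity with limma, miR-34a did not pass the threshold. Its normalized log2 intensity was 6.41 ± 0.028 in treated and 6.57 ± 0.082 in control samples (SD, n = 3 each), and the groups did not overlap. The log2 difference was -0.17 (SE 0.048, 95% interval -0.28 to -0.05, unadjusted p = 0.0108, limma adjusted p = 0.182). By unadjusted p the probe ranked 36 of 625. Across all tested probes 0.96% passed at an adjusted p under 0.05 (0.16% as lower) and 15% had an unadjusted p under 0.05 (8% as lower). The groups did not overlap for 19.6% of the probes, with treated arrays below for 10.7%. Of the 2 members tested, 0 passed, and 1, miR-34a, had an unadjusted p under 0.05. An added constant of 50 in the background correction shrinks the differences of dim probes, and no constant was added for the -0.49 in scaled intensity.

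The direction for miR-34a depended on whether arrays were scaled. Without normalization between arrays the limma difference was 0.04 (adjusted p = 0.435), and with scaling to the 75th percentile it was -0.21 and passed (adjusted p = 0.0258, range over the alternatives 0.0258 to 0.884). That scaling called 207 of the 625 probes lower. Set against the median over the probes of the same fit, the difference of miR-34a was lower in 24 of 24 settings, by 0.10 to 0.42 on the log2 scale. The 24 settings are not separate support, because scaling each array by 1 constant moves miR-34a and that median alike. Some other settings change only the test or the threshold and keep the same difference. Leaving out 1 array at a time gave differences between -0.22 and -0.14, none of which passed.

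**Figure D3:**
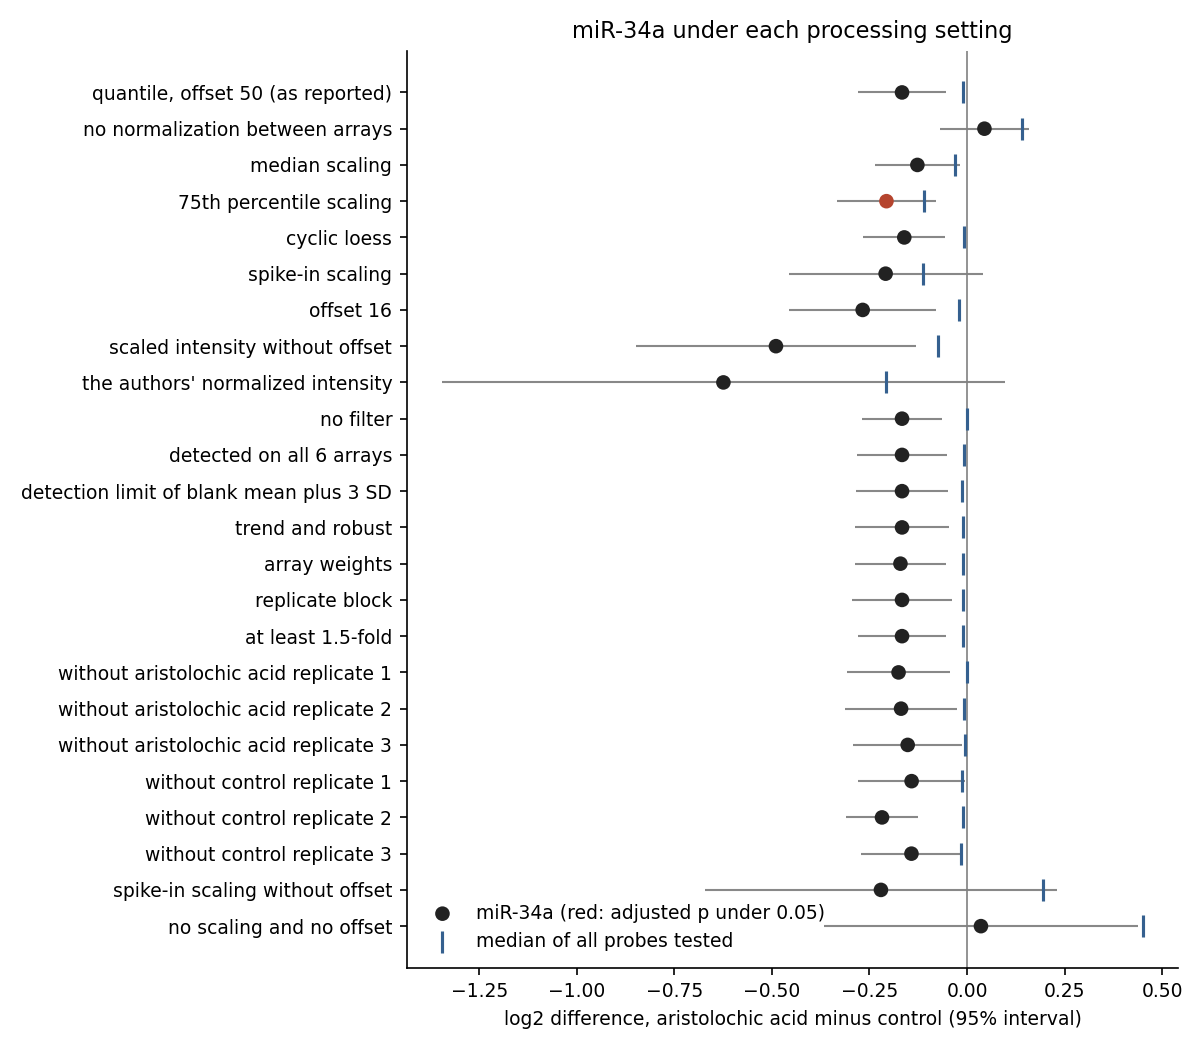
Log2 difference of miR-34a, aristolochic acid minus control (x axis), under each of 24 processing settings, as points with 95% intervals. Vertical ticks give the median of all probes tested in the same fit. The point lies left of the tick in every setting, and right of 0 only without normalization (0.04) and without scaling and offset (0.04).

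MiR-34c-3p did not differ beyond its error. The log2 difference was -0.02 (SE 0.031, 95% interval -0.10 to 0.05, limma adjusted p = 0.762), and the groups overlapped in background-subtracted, scaled and normalized values. In raw intensity, which includes the background, all treated arrays lay above all control arrays. In scaled intensity it had 4.90, 4.30 and 7.29 in treated samples and 7.40, 6.93 and 6.21 in control samples. The first treated value is that of the array on which it was not detected. With scaling to the 75th percentile, which called 207 of 625 probes lower, the difference was -0.19 and passed (adjusted p = 0.0238), and without normalization it was 0.06.

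The other arms of the hairpins were measured by separate probes. MiR-34b*, the 5′ arm with the family motif, was the only probe of the MIR34B and MIR34C precursor that was detected on all 6 arrays. Its scaled intensity was 19.5, 13.8 and 9.60 in treated samples and 22.6, 24.6 and 15.8 in control samples, so the groups overlapped at the highest treated and the lowest control array. The limma difference was -0.11 (SE 0.053, adjusted p = 0.374), 0.04 without normalization and -0.22 with the 75th percentile, where it was 1 of the 207 probes called lower (adjusted p = 0.0246). In background-subtracted intensity it was -0.06 on the log2 scale, with 17.2, 12.9 and 8.06 in treated samples and 14.8, 15.2 and 9.06 in control samples. MiR-34a* was detected on 0 of 3 treated arrays and 1 of 3 control arrays.

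In the scaled log2 difference miR-34b* ranked 16 and miR-34a ranked 29 from the lowest of the 503 probes. Their control arrays ran in different orders, since control replicate 2 was the lowest for miR-34a and the highest for miR-34b*.

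**Figure D4:**
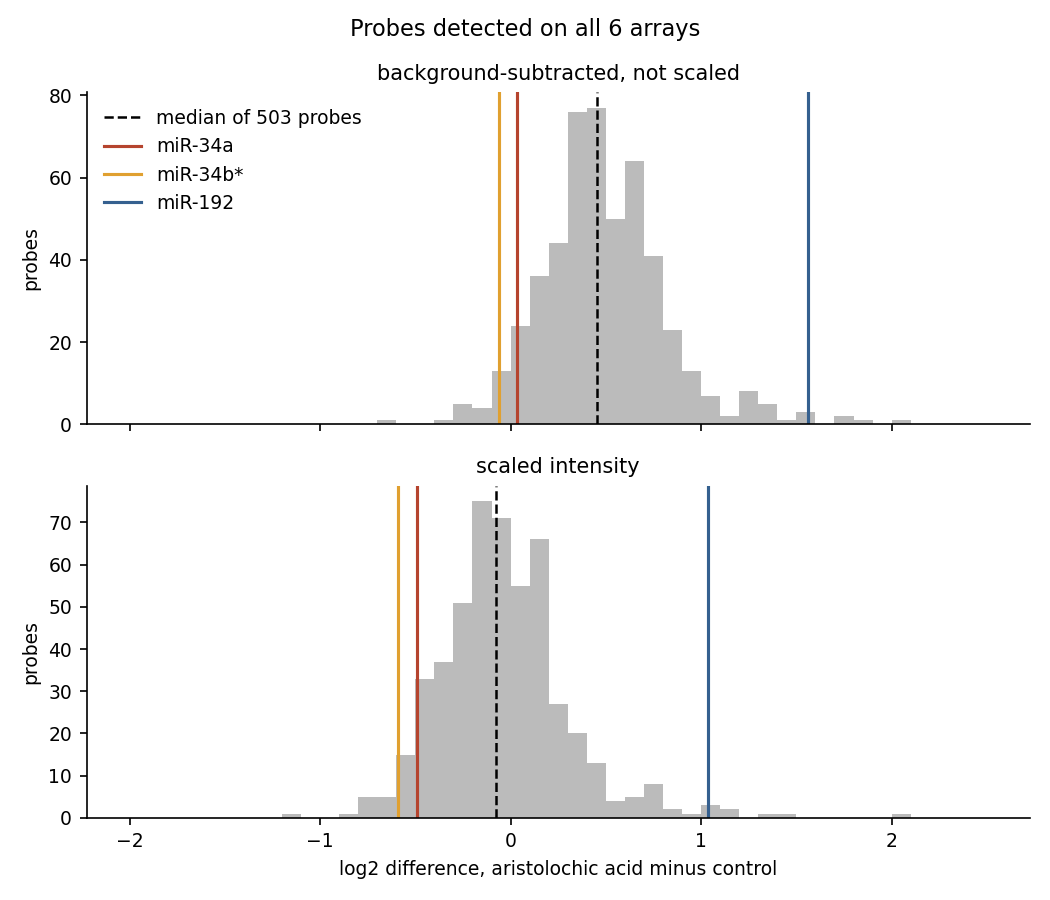
Number of probes (y axis) by log2 difference, aristolochic acid minus control (x axis), for the 503 probes detected on all 6 arrays, in background-subtracted intensity (top) and scaled intensity (bottom). The dashed line is the median of the 503 probes, at 0.45 and -0.07. MiR-34a (0.04 and -0.49) and miR-34b* (-0.06 and -0.59) lie to its left in both panels, and miR-192 (1.56 and 1.04) to its right.

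The miR-449 genes encode miRNAs with the same motif, known from ciliated epithelium. MiR-449a was detected on 1 of 3 treated and 0 of 3 control arrays, miR-449b on 0 of 3 and 2 of 3, and miR-449c on none. MiR-449b*, a 3′ arm without the motif, was detected on all arrays, at a scaled intensity of 6.98, 15.5 and 14.3 in treated samples and 17.9, 18.6 and 14.4 in control samples (limma log2 difference -0.08, SE 0.042, adjusted p = 0.430). MiR-449c*, which is also the arm without the motif, was detected on 3 of 3 treated arrays and 1 of 3 control arrays, with a limma difference of 0.03 (adjusted p = 0.725). The last direction was below 0 with median scaling, the 75th percentile and spike-in scaling, and that of miR-449b* above 0 without normalization.

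The probes nearest to miR-34a in their course over the 6 arrays were miR-1909*, miR-302b, miR-4502, miR-4454 and miR-125a-5p. The measure was the root mean square difference between log2 scaled intensities, each centred on its own mean, and was 0.096 to 0.11 for these 5, against a median of 0.35 over all probes compared. Their scaled log2 differences lay between -0.50 and -0.32. These values and the small distances follow from picking the 5 by nearness to miR-34a on the same arrays. The points share the scaling of each array, and the 5 span a wide range of signal. For miR-4454 scaled intensity was 48099, 51066 and 50120 in treated samples and 70694, 68256 and 71736 in control samples. For miR-1909* it was 6.36, 6.11 and 5.60 in treated samples and 9.29, 6.91 and 7.96 in control samples. MiR-125a-5p, reported to bind the mRNA of p53, had 72.7, 65.4 and 68.8 in treated samples and 84.3, 75.4 and 99.6 in control samples (limma log2 difference -0.11, adjusted p = 0.382).

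Other miRNAs tied to p53 were read beside the family. Of 19 miRNAs listed as induced by p53, without the miR-34 family, 18 were matched by name and 16 were tested. In limma 1 of the 16 passed, as higher, where 0.8% of all probes did. At an unadjusted p under 0.05 there were 5 higher, where 7.04% of all probes were, and 1 lower, where 8% were. The treated arrays lay all above the control arrays for 5 of the 16, against 8.81% of all tested probes. They lay all below them for 0, against 10.7%. Those 5 were miR-194, miR-192, miR-215, miR-200c and miR-141. They include neighbours in shared clusters, so they are not 5 independent members to set against a share of probes. The list was chosen with earlier results of these data known. The median difference of the list was 0.05, with -0.01 over all 625 probes. Of the 19 listed miRNAs 3 also belong to the tubule markers and 2 to the stromal markers.

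The miRNA that passed was miR-194, which is abundant in kidney tubules and is encoded beside miR-192 and miR-215. Its scaled intensity was 41.9, 39.8 and 51.7 in treated samples and 20.7, 15.9 and 22.2 in control samples (limma log2 difference 0.35, SE 0.046, adjusted p = 0.0194). The call held in 1 of 6 fits that left out an array, the one without control replicate 3 (adjusted p = 0.0457), and was lost without each of the other five arrays (adjusted p 0.0523 to 0.0877). It was also lost with spike-in scaling (adjusted p = 0.514), on the authors' normalized intensity (adjusted p = 0.374) and where a change of at least 1.5-fold was required. With spike-in scaling miR-34a and miR-194 had the same SE (0.127), as they did on the authors' intensity (0.368), so that error was not particular to miR-194. Counting the fit reported here, miR-194 passed in 16 of 24 settings. MiR-192, which has the same seed as miR-215, had 61.0, 40.0 and 47.5 in treated samples and 25.7, 19.1 and 27.3 in control samples (limma log2 difference 0.33, adjusted p = 0.0687). MiR-215 had 26.8, 19.7 and 39.6 in treated samples and 12.8, 17.6 and 7.94 in control samples (limma log2 difference 0.23, adjusted p = 0.198).

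The epithelial miRNAs miR-200c and miR-141, which are neighbours in 1 cluster, also had groups that did not overlap. For miR-200c scaled intensity was 52.2, 42.7 and 51.1 in treated samples and 29.0, 36.1 and 29.7 in control samples (limma log2 difference 0.22, adjusted p = 0.0687). MiR-141 was dim, detected on 3 of 3 treated and 2 of 3 control arrays (limma log2 difference 0.22, adjusted p = 0.138). It met the filter only through the treated group, where it is high, so its place among the 5 is no evidence for the list. In background-subtracted intensity the treated arrays of these 5 were the higher ones too. The same held for 53.7% of the 503 probes detected on all arrays, a set that does not include miR-141.

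The miR-17-92 transcript, which promotes proliferation and is reported to be repressed by p53, gave 6 tested probes. In limma 0 of them passed, and 2 had an unadjusted p under 0.05, both as lower, where 8% of all probes were. All 6 differences were below 0, as were 345 of the 625 over all probes, and the median was -0.15. MiR-92a had a scaled intensity of 107, 94.8 and 112 in treated samples and 131, 138 and 123 in control samples (limma log2 difference -0.15, adjusted p = 0.114). MiR-19a had 224, 194 and 202 in treated samples and 232, 242 and 229 in control samples (limma log2 difference -0.14, adjusted p = 0.321). Without normalization the differences of miR-92a and miR-19a were 0.15 and 0.27, and the treated arrays of both lay above the control arrays in background-subtracted intensity. That of miR-19a was also above 0 with median scaling (0.10), the 75th percentile (0.018), spike-in scaling (0.015) and that scaling without offset (0.086).

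Of 9 miRNAs reported to bind the mRNA of p53, 6 were tested and 0 passed in limma, where 0.96% of all probes did. The list median was -0.04, with -0.01 over all 625 probes. At an unadjusted p under 0.05 there was 1 of the 6, as lower, where 8% of all probes were. That one was miR-33a, an intronic miRNA of a sterol regulator gene. Its background-subtracted intensity was 4.51, 7.99 and 7.92 in treated samples and 12.6, 9.44 and 11.3 in control samples, with the first treated array below its limit of detection. It met the filter only through the control group, where it is high, so its lower values are a description. The groups did not overlap on this scale or after scaling (limma log2 difference -0.17, SE 0.039, adjusted p = 0.114), with an adjusted p over the alternatives of 0.0147 to 0.459.

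**Figure D5:**
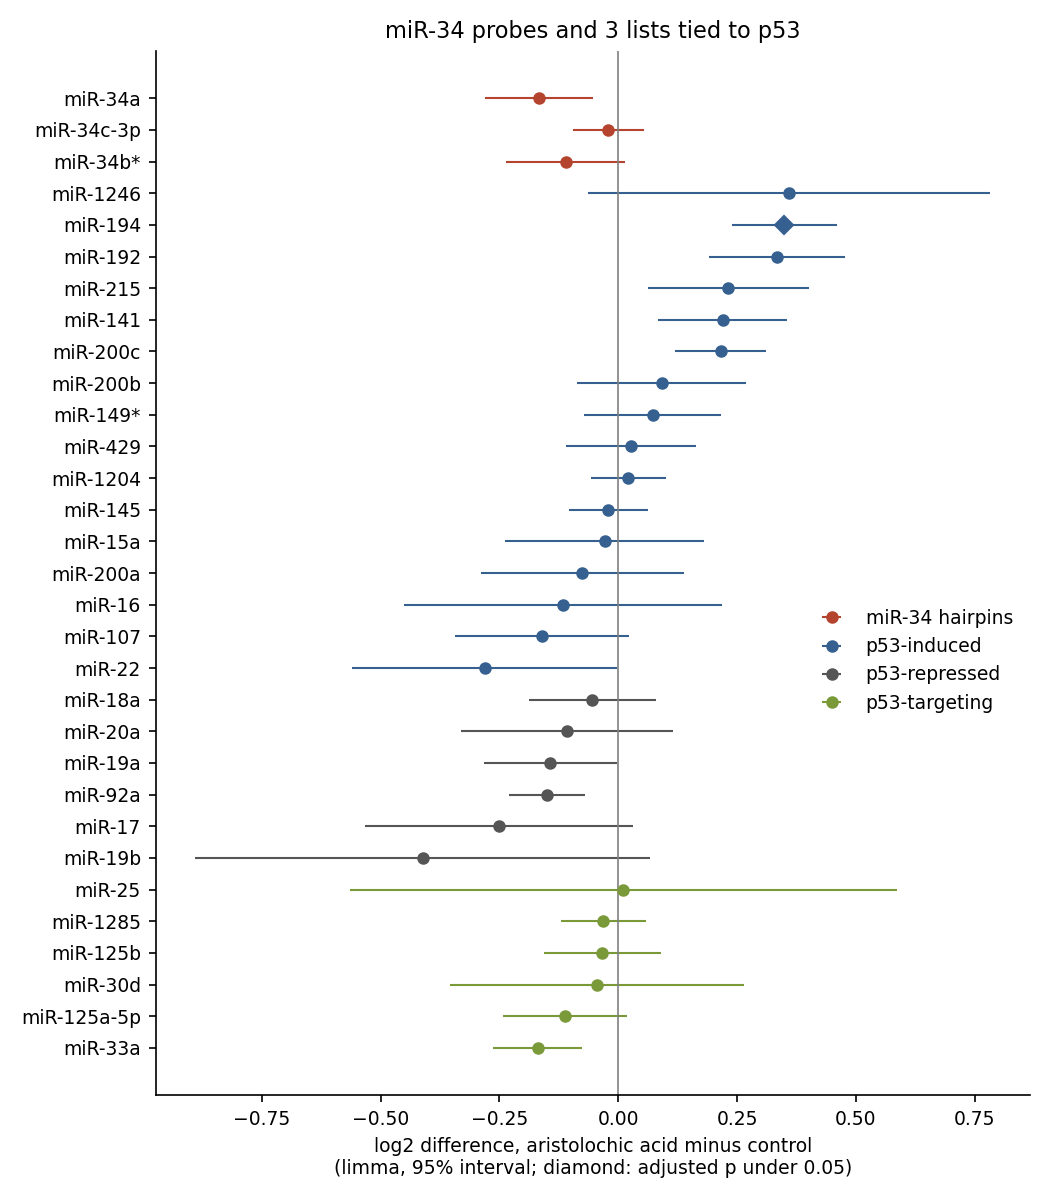
Log2 difference, aristolochic acid minus control, with 95% interval from limma (x axis) for the tested probes of the miR-34 hairpins and of 3 lists tied to p53, coloured by list. The diamond marks miR-194, with an adjusted p of 0.0194. MiR-34a lies at -0.17, on the other side of 0 from miR-192 at 0.33 and miR-194 at 0.35.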

How the data were processed

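Cy5-labelled total RNA (500 ng, with a kit for LNA microRNA arrays, per the labels' protocols) was read on single-colour arrays. Scanner and software are not given in the sources used here. Per the file headers, the deposited intensity values were raw, background-subtracted and globally normalized, and the deposited value table of the series held the last of these again. The background was 1 constant per array. Probes with an empty background-subtracted cell, or an outlier mark, counted as not detected. Raw intensities were corrected by normexp (offset 50, all spots), and the 1719 human probes, less 2 outlier spots, were quantile normalized. A probe was tested if 1 group or both had it on every array (625 probes). The model in limma 3.58.1 (R 4.3.3) held the group alone, with Benjamini-Hochberg adjustment at 0.05. Scaled intensity is background-subtracted intensity with a common median of 25. The steps were tested on simulated data in which both groups were equally bright above background. The difference in brightness between the real groups was not covered by that test. The members, lists, tests and alternatives were chosen with earlier results of these data known. Named were the members, their other arms, the miR-449 probes, list members that passed or whose groups did not overlap, and the 5 probes nearest to miR-34a. The alternatives changed scaling, background, filter, variance model, weights, block and threshold, and left out each array. The number of arrays limits the precision.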

Additional observations from a re-analysis of the deposited data

How the results depend on the processing

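Of 23 alternatives, 21 planned and 2 added after the data were seen (no offset, with spike-in scaling or with no scaling), 21 left the difference of miR-34a below 0. It was 0.045 without normalization and 0.036 with neither scaling nor offset, and -0.21 and past the threshold with the 75th percentile, where 2 members passed instead of 0. Leaving out 1 array gave -0.22 to -0.14. Without normalization the sign turned for miR-34c-3p (0.063), miR-34b* (0.036), miR-449b* (0.052), miR-92a (0.15), miR-19a (0.27) and miR-125a-5p (0.13), and with neither scaling nor offset for miR-92a (0.21), miR-19a (0.34) and miR-125a-5p (0.21). MiR-19a was also above 0 with median scaling (0.10), the 75th percentile (0.018), spike-in scaling (0.015) and that scaling without offset (0.086). MiR-449c* was below 0 under the first 3 of those, at -0.063, -0.14 and -0.14. The count of passing p53-induced miRNAs was 1, and 12 without normalization, 5 with median scaling, 8 with the 75th percentile (6 higher, 2 lower), 2 with offset 16, 0 on the authors' values, 2 without a filter, 3 with trend and robust, 2 with array weights, 0 at 1.5-fold or more, 4 on the spike-ins without offset, 8 with neither scaling nor offset, and 0 to 1 with 1 array left out. These p53-induced counts are out of 15 to 18 tested, and the counts over all probes are given below. The p53-repressed count was 0 of 6, and 2 of 6 without normalization. The p53-targeting count was 0, and 2 without normalization (both higher) and 1 each with median scaling, the 75th percentile, and trend and robust (lower). Why the scalings differ was not tested. The median of all probes was -0.01, moving to 0.14 if arrays were not normalized, to -0.11 under the 75th percentile and likewise under spike-in scaling, to -0.21 in the authors' intensities, to 0.20 under spike-in scaling without offset and to 0.45 with neither. Over all probes 6 passed (5 higher, 1 lower), and 310 without normalization (310 higher), 37 with median scaling (32 higher) and 245 with the 75th percentile (207 lower). After quantile normalization the deviations of same-numbered samples from their group means had correlations of -0.14, -0.18 and 0.01. That normalization removes shifts common to a whole array, so these values cannot decide whether same-numbered samples were handled together. With the replicate block miR-34a had a limma difference of -0.17 (adjusted p = 0.332) and 4 probes passed. Signal over background limited miR-34b and miR-34c-5p, which were tested only without the filter or, for miR-34b, without treated replicate 3, and did not pass there.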
